A study of Mus musculus with 9 samples.

Results

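The nuclear genes for the respiratory chain were examined in sorted limb cells of control mouse embryos and of embryos mutant for the homeobox gene Shox2. Genes were taken by symbol: rows of the deposited expression table that begin with Ndufa, Ndufb, Ndufc, Ndufs, Ndufv, Uqcr, Cox4i, Cox5, Cox6, Cox7, Cox8 or Atp5, together with Sdha, Sdhb, Sdhc, Sdhd and Cyc1. This gave 93 of 24102 rows, or 0.386% of the table. Of these, 43 belong to complex I by their name, 4 to complex II, 9 to complex III, 20 to complex IV and 17 to the ATP synthase. The symbols also bring in genes that are not subunits, such as the 7 assembly factors Ndufaf1 to Ndufaf7, the ATP synthase factor B gene Atp5s, and Atp5sl, later placed among the assembly factors of complex I. Ndufa4 and Ndufa4l2 carry complex I names and were counted with complex IV, where the Ndufa4 protein is now placed. Cox7a2l, named for its likeness to Cox7a2, is known for joining complexes into larger assemblies. Leaving out these 10 named factors, 83 rows are subunits.

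All samples were limb tissue at E12.5. Control cells carried Cre at 1 Shox2 allele and an intact second allele, genotype Shox2(Cre/+);Rosa(mTmG), with 3 samples from 3 litters. Mutant cells carried Cre at 1 allele and a mutant second allele, genotype Shox2(Cre/-);Rosa(mTmG), with 4 samples from the same 3 litters. Both groups thus share the Cre allele and the Rosa(mTmG) reporter, which turns from red to green membrane fluorescence where Cre has acted, so the green cells sorted from each limb are cells that had switched on the Shox2 locus. The 2 whole-limb samples of WT genotype were not analysed here. The table has 1 control and 1 mutant column per litter (n = 3 per group), and nothing given here tells whether the mutant column of litter 1 holds 1 or both of its samples. The labels do not say how many embryos made up a sample, so p-values measure the spread between these columns. The comparison asks whether genes of respiration moved opposite to genes of glucose use when Shox2 was disrupted.

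The respiratory chain of the inner mitochondrial membrane passes electrons from NADH through complex I, or from succinate through complex II, to ubiquinone, then through complex III and cytochrome c to complex IV, which reduces oxygen. Complexes I, III and IV pump protons, and the ATP synthase lets the protons flow back to make ATP. Most subunits are encoded in the nucleus and imported, and a small core set is encoded in mitochondrial DNA. In the limb bud, the early mesenchyme and the forming cartilage are known for strong glycolysis, and the transcription factor HIF raises glycolytic genes and a few respiratory genes where oxygen is low.

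Promoters of these genes are known for sites of NRF1, of ETS factors such as GABP, and of YY1. RefSeq windows on GRCm38.p6, from 250 bases before to 50 after the start, were found for 76 members (82 windows). The core NRF1 site, a palindrome spelled by the capitals in the stretches below, was in 8.54% of the member windows (7 of 82), against 0.971% of all 32851 windows of that length and 1 of 43 windows (2.33%) of glucose-use genes. Of the genes with the site, Ndufa11 stood at a lower level than Atp5k and Cox6a1. Atp5k was lower in the mutant in litter 2 only, and Cox6a1 and Ndufa11 were lower in every litter. The upstream stretches of these 3 genes are shown because they carry this shared site. The capitals mark the NRF1 site, and each runs 5′ to 3′ on the gene's strand over the 250 bases before the start.
Atp5k, chr5:108434400-108434649, minus strand: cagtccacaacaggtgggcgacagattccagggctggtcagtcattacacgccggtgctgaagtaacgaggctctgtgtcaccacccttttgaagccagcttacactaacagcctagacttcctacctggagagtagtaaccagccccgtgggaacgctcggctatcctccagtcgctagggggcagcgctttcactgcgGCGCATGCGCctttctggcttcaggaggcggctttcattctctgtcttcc
Cox6a1, chr5:115348959-115349208, minus strand: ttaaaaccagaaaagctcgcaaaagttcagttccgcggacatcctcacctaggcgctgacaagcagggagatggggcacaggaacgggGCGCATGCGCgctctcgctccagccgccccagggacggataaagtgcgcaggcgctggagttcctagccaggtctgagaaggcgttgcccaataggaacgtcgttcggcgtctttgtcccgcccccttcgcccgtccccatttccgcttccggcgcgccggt
Ndufa11, chr17:56717512-56717761, plus strand: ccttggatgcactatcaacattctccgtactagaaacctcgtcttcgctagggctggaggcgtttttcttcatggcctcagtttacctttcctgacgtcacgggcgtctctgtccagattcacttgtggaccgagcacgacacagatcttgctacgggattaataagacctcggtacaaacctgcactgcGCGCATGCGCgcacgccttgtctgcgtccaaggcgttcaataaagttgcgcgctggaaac
The site ends 40 bases before the start in Atp5k, 152 bases in Cox6a1 and 50 bases in Ndufa11. The other members with the site were Atp5g2, Ndufaf4, Ndufaf5 and Uqcrc1. Searching both strands, the ETS core CCGGAAG was in 20.7% of member windows (17 of 82) and in 8.86% of all windows, and the YY1 core AAGATGGCG was in 9 of 82 member windows and in 1.40% of all windows. The HIF core ACGTG was in 26.8% of member windows (22 of 82), in 44.2% of glucose-use windows (19 of 43) and in 19.6% of all windows. TATAAA was in 9.76% of member windows (8 of 82) and in 13.6% of all windows. The 5 motifs do not contain one another. These are letter matches in a window, and no binding was measured here.

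Shox2, the targeted gene, was at 217, 222 and 209.7 FPKM in the controls of litters 1, 2 and 3 and at 16.7, 18.3 and 96.9 FPKM in the mutants. It was lower in each mutant column than in each control column, with the highest mutant level in litter 3. Values were taken as FPKM, a unit that divides the fragments of a gene by its transcript length and by the size of the library. The columns are labelled as sorted cells, and the limb mesenchyme gene Prrx1 was at 106 to 246 FPKM in every column. Each litter has its own normalisation line in the header, which may make levels differ between litters by scaling alone, and depth is unknown. The level of the control of litter 2 moved with transcript length. Its median deviation from the row median, in log2(FPKM + 1), ran from 0.145 for genes with transcripts of up to 500 bases to -0.135 for those over 6000 bases. Both columns of litter 1 ran the other way between these bins, from -0.040 to 0.092 in the control and from -0.162 to 0.077 in the mutant. Over all 12314 rows tested the control of litter 2 was the highest of the 6 columns in 32.2%. Rpl11, Rpl12, Rpl17, Rpl23a and Rpl35, ribosomal protein genes that every cell uses, were listed at 0 in that column, so a 0 in the table may be a failed estimate. The mutant of litter 2 had the Y-linked genes Eif2s3y, Kdm5d and Uty listed at 0 and Ddx3y at 0.0223 FPKM. In the other 5 columns Eif2s3y was at 14.4 to 23.9 FPKM and Ddx3y at 17.1 to 27.7 FPKM. The sex-linked gene Xist was at 178 FPKM in that mutant and at 12.1 to 73.0 FPKM in the other 5 columns. The 2 columns of litter 2 thus differed in sex-linked genes, and the part of sex in the member values was not tested. Results are therefore given by litter, and with and without the litter 2 pair.

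**Figure D1:**
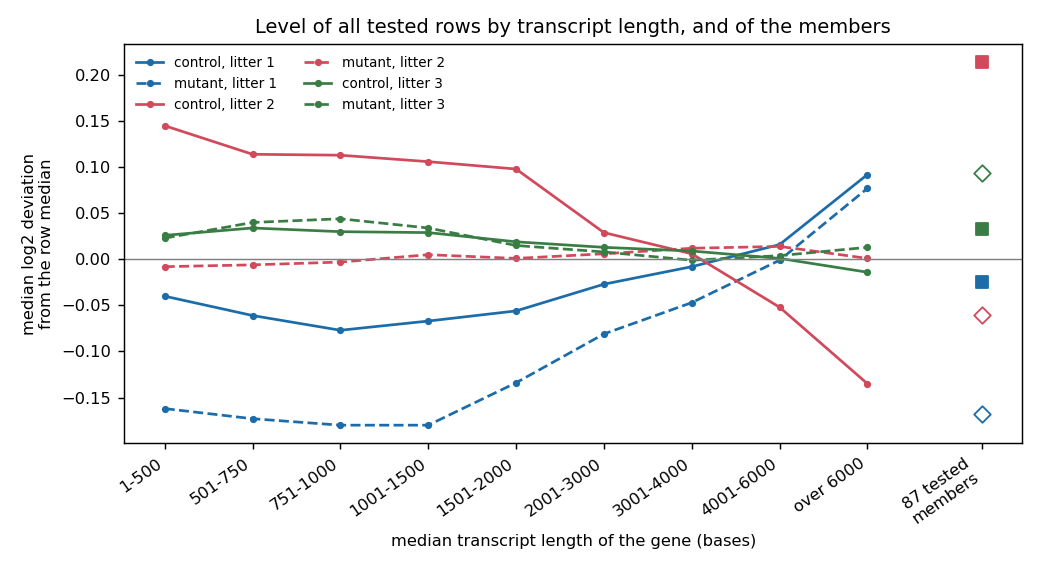
Median log2 deviation of each column from the row median, over all tested rows with a known transcript length in bins of length, with the same value for the 87 tested members at the right (filled squares, controls; open diamonds, mutants). The control of litter 2 runs from 0.145 in the shortest bin to -0.135 in the longest, and stands at 0.214 over the members.

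Respiratory chain genes were among the strongly expressed genes of these cells and showed no direction shared by the 3 litters. The median member stood at 76.0 FPKM over the 6 columns, against 13.4 FPKM for all rows tested. Summed over the 93 members, FPKM came to 7946, 11316 and 8664 in the controls of litters 1, 2 and 3 and to 7467, 8529 and 9249.7 in the mutants. As a share of all FPKM in the column, this was 2.12%, 2.86% and 1.98% in the controls and 2.15%, 2.36% and 2.11% in the mutants. The control of litter 2 was the highest of the 6, and the mutant exceeded its control in share in litters 1 and 3.

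**Figure D2:**
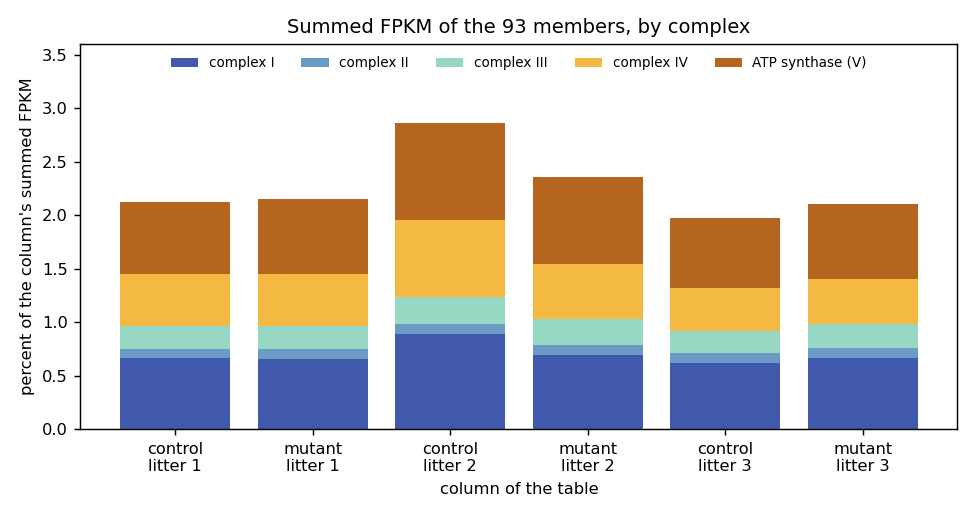
Summed FPKM of the 93 members as a percent of all FPKM in each column, stacked by complex; bars start at 0 and each bar is 1 column. The control of litter 2 is highest, at 2.86%, and the other 5 columns lie between 1.98% and 2.36%.

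For the test, 87 members passed the filter, which asked for 3 columns at or above 1 FPKM. No member differed between genotypes in limma's test with Benjamini-Hochberg adjustment over all rows tested (0 of 87), and neither did any row of the table (0 of 12314, 0%). The lowest adjusted p of a member was 1.00. At an unadjusted limma p under 0.05, 1 member was higher in mutants, Ndufa4l2, and 0 were lower, where 2.21% of all rows were higher and 1.36% lower. With litter as a block, which uses the pairing of the columns, 0 members and 0 rows (0%) passed adjustment, and the lowest adjusted p of a member was 0.344. Unadjusted limma p in that paired fit was under 0.05 for 2 members in the higher direction, Atp5s and Ndufa4l2, and for 3 in the lower direction, Atp5g1, Ndufa11 and Atp5sl. The background in the paired fit was 5.34% higher and 6.29% lower. Shox2 itself, at a log2 difference of -2.75 (SE 0.64), passed in neither fit (limma adjusted p = 0.803, and 0.0998 in the paired fit). Without the block, the 95% interval of the log2 difference lay within -1 to 1 for 61 of 87 members (70.1%, background 82.3%). With the block it did so for 78 of 87 members (89.7%, background 95.4%). For the other members a 2-fold difference was thus inside the interval, and a missed threshold does not show that they did not differ.

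The direction of the members differed between litters. The median difference in log2(FPKM + 1), mutant minus control, was -0.079 in litter 1, -0.346 in litter 2 and 0.068 in litter 3. All rows tested had medians of -0.070, -0.030 and 0.003. Members lower in the mutant numbered 58 of 87 in litter 1, 63 in litter 2 and 21 in litter 3. Of all 12314 rows tested, 7427, 6544 and 6036 were lower in the mutants of litters 1, 2 and 3. The median size of a member's difference, regardless of sign, was 0.142, 0.50 and 0.082, against 0.186, 0.264 and 0.107 over all rows. Differences beyond 0.5 in size were found for 2 members in litter 1 (2.3%), 44 in litter 2 (50.6%) and 1 in litter 3 (1.15%). The backgrounds over all rows were 6.98%, 23.2% and 4.17%. Of the 44, 37 were lower in the mutant and 7 higher. Litters 1 and 3 thus held the members closer to 0 than the rows at large, and litter 2 spread them wider.

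**Figure D3:**
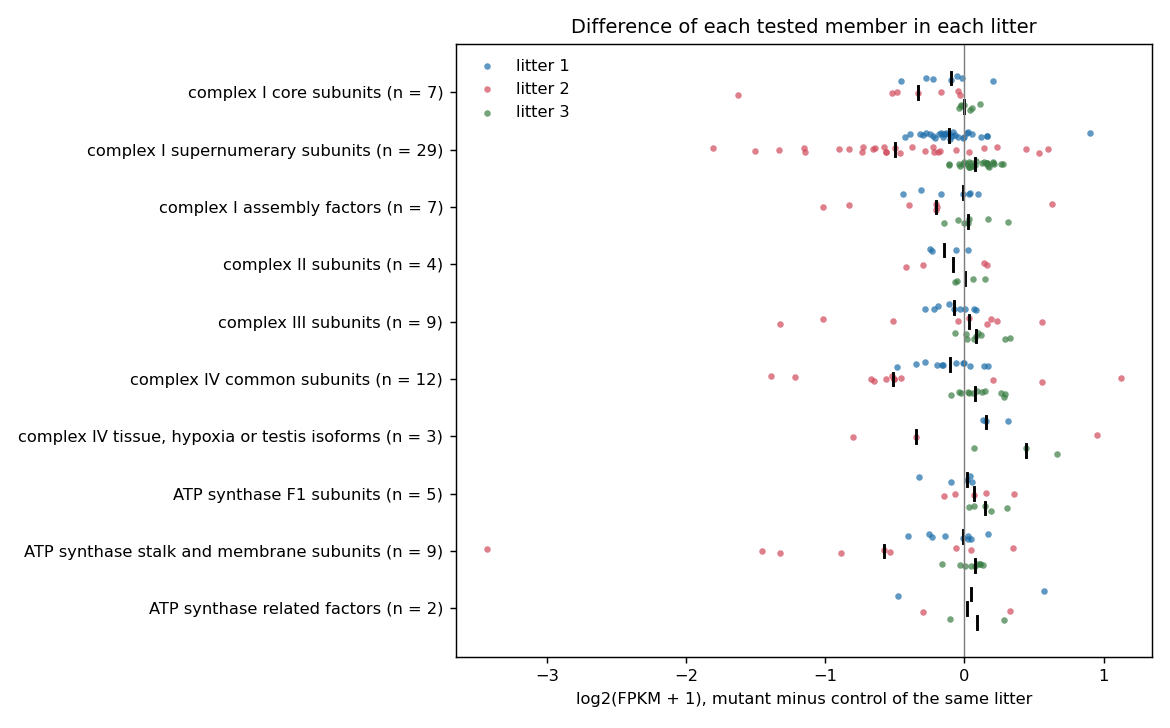
Difference in log2(FPKM + 1), mutant minus control of the same litter, for each of the 87 tested members (points) by role, with black ticks at the median of each role and litter. Points of litter 2 reach from -3.43 to 1.12, while those of litter 1 lie between -0.49 and 0.90 and those of litter 3 between -0.16 and 0.66.

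Over the 3 litters the median member difference was -0.137, and that of all rows -0.040. Without the litter 2 pair it was -0.002, where all rows had -0.035. Leaving out the control of litter 2 alone gave -0.010, leaving out the control of litter 1 gave -0.214, and leaving out the mutant of litter 1 gave -0.061. The paired fit without litter 3 gave -0.238. The control of litter 2 was the highest of the 6 columns for 49 of 87 members (56.3%), where the background was 32.2%, and the lowest for 16 (18.4%). Its median deviation from the row median was 0.214 over the members. The median transcript of a tested member is 717 bases, against 2241 bases for all rows tested. For rows up to 1000 bases long the deviation was 0.115 (1987 rows), and for the 63 members of that length 0.368. After each column was adjusted for transcript length, a step chosen after the data were seen, the member medians were 0.033, -0.243 and 0.059 in litters 1, 2 and 3. The part of length in the member values of litter 2 was otherwise not tested.

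Of the 87 members, 12 were lower in the mutant in all 3 litters (13.8%) where the background was 22.3%, and 9 were higher in all 3 (10.3%) where it was 15.7%. The 12 were Ndufs7, Ndufs8, Ndufv1, Ndufa11, Ndufa13, Ndufab1, Sdha, Sdhb, Cox5a, Cox6a1, Atp5sl and Atp5g1. The 9 were Sdhd, Uqcrc2, Uqcrh, Cox7a2l, Ndufa4l2, Atp5a1, Atp5c1, Atp5e and Atp5s. In 1 member, Ndufa4l2, every mutant column was above every control column (1.15%, background 4.22%). In 3 members, Ndufv1, Ndufa13 and Atp5sl, every mutant column was below every control column (3.45%, background 5.03%). Each of these shares was below its background.

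Complex I, the entry point for electrons from NADH, had a median difference of -0.101, -0.397 and 0.045 in litters 1, 2 and 3 over its 43 genes. None was higher in all 3 litters (0%, background 15.7%), and 6 of 43 were lower in all 3 (14%, background 22.3%). Both shares were below their backgrounds. In the values that follow, the 3 controls and then the 3 mutants are given in the order of litters 1, 2 and 3. The flavin-bearing core subunit Ndufv1, which takes the electrons from NADH, was at 70.8, 75.3 and 66.4 FPKM in the controls and 60.4, 59.5 and 64.7 FPKM in the mutants. Its groups did not overlap, but the nearest columns, 64.7 and 66.4 FPKM, were both from litter 3. The log2 difference was -0.20 (SE 0.13). Ndufs1, a core subunit that carries iron-sulfur clusters, was at 50.5, 46.7 and 48.96 FPKM in the controls and 58.4, 45.6 and 48.2 FPKM in the mutants, with overlapping groups and a difference of 0.05 (SE 0.14).

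The core subunits Ndufs7 and Ndufs8, which carry the iron-sulfur clusters nearest to ubiquinone, were lower in each mutant column than in the control of its litter. Ndufs7 was at 57.98, 103 and 77.7 FPKM in the controls and 47.6, 71.6 and 76.5 FPKM in the mutants, and Ndufs8 was at 64.8, 88.4 and 70.3 FPKM in the controls and 47.01, 62.9 and 70.3 FPKM in the mutants. In both genes litters 1 and 2 held nearly all of the difference, and litter 3 was level. The 7 core subunits together had medians of -0.099, -0.335 and -0.000 by litter.

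The 29 supernumerary subunits, which surround the catalytic core, had medians of -0.112, -0.50 and 0.074. Ndufa13 was at 49.2, 57.9 and 41.2 FPKM in the controls and 39.8, 38.5 and 41.1 FPKM in the mutants. All 3 mutants lay below all 3 controls, by 0.07 FPKM at the nearest pair, which again was litter 3. Its log2 difference was -0.29 (SE 0.16). Ndufb7 was at 104, 172 and 109 FPKM in the controls and 79.4, 91.8 and 112 FPKM in the mutants, lower in litters 1 and 2 and level in litter 3. Ndufa11, whose promoter is shown above, was at 13.4, 19.1 and 12.2 FPKM in the controls and 9.71, 13.2 and 11.9 FPKM in the mutants. Its unadjusted limma p was 0.0435 in the paired fit, with an adjusted p of 0.416, and 0.167 without the block. Ndufa6 was at 91.1, 78.5 and 85.02 FPKM in the controls and 84.2, 107 and 102 FPKM in the mutants, lower in the mutant of litter 1 and higher in litters 2 and 3.

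Ndufa3 had the highest mean level of complex I, at 168, 279 and 211 FPKM in the controls and 148, 177 and 244 FPKM in the mutants. Ndufb4 had the lowest, at 2.37, 0.343 and 5.77 FPKM in the controls and 1.71, 0.371 and 5.86 FPKM in the mutants, with 37.0% of its 50-base windows shared with other transcripts, so its level is uncertain. Ndufc1 was at 43.97, 197 and 92.6 FPKM in the controls and 49.4, 55.7 and 94.8 FPKM in the mutants, and litter 2 differed by -1.80 in log2 against 0.16 and 0.03 in litters 1 and 3. Among the 7 assembly factors, which help build complex I and leave it, the medians were -0.011, -0.206 and 0.028. Ndufaf3 was at 12.8, 7.93 and 11.2 FPKM in the controls and 10.1, 12.8 and 12.7 FPKM in the mutants, with the lowest column the control of litter 2.

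Complex II, succinate dehydrogenase, has 4 subunits, all nuclear. The 2 subunits of the soluble head were lower in the mutant of every litter. Sdha, the flavoprotein that oxidises succinate, was at 69.1, 107 and 98.7 FPKM in the controls and 66.2, 79.8 and 93.96 FPKM in the mutants, and Sdhb, its iron-sulfur partner, was at 88.3, 103 and 104 FPKM in the controls and 75.02, 83.8 and 101 FPKM in the mutants. The groups overlapped for both, since the control of litter 1 was among the lower columns. The 2 membrane anchors did not share this order. Sdhc was at 95.8, 93.7 and 105 FPKM in the controls and 80.4, 105 and 117 FPKM in the mutants, lower in litter 1 only, and Sdhd was at 81.98, 77.8 and 90.4 FPKM in the controls and 83.3, 85.6 and 94.6 FPKM in the mutants, higher in each litter. The log2 differences over litters were -0.18 (SE 0.22) for Sdha, -0.19 (SE 0.16) for Sdhb, 0.02 (SE 0.18) for Sdhc and 0.07 (SE 0.14) for Sdhd.

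Complex III, which hands electrons from ubiquinol to cytochrome c, had medians of -0.074, 0.031 and 0.082 over 9 genes, the complex closest to 0 over litters at -0.009. The large core protein Uqcrc2 was at 99.3, 84 and 106 FPKM in the controls and 105, 96.02 and 114 FPKM in the mutants, higher in each litter by 0.08 to 0.19. Its partner Uqcrc1 was at 114, 112 and 125 FPKM in the controls and 93.8, 108 and 126 FPKM in the mutants, lower in litter 1 by -0.28 and level in litters 2 and 3. The hinge protein Uqcrh, the highest of the 9, was at 209, 200.5 and 161 FPKM in the controls and 219, 224 and 197 FPKM in the mutants. The catalytic members were level or mixed: the Rieske iron-sulfur protein Uqcrfs1 was at 71.9, 65.3 and 86.6 FPKM in the controls and 70.2, 66.7 and 91.8 FPKM in the mutants, and cytochrome c1, Cyc1, was at 55.5, 80.97 and 116 FPKM in the controls and 48.6, 95.4 and 110.0 FPKM in the mutants. For Cyc1 the litters differed more than the genotypes, with both columns of litter 1 below the other 4.

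The largest differences of complex III were those of 2 small subunits in litter 2. Uqcr10 was at 109, 236 and 139 FPKM in the controls and 104, 116 and 141 FPKM in the mutants, and Uqcr11 was at 37.8, 49.1 and 50.9 FPKM in the controls and 32.5, 19.03 and 55.2 FPKM in the mutants. In litters 1, 2 and 3 the log2 differences were -0.07, -1.02 and 0.02 for Uqcr10 and -0.22, -1.32 and 0.12 for Uqcr11. The lowest mean level belonged to Uqcrb, at 61.8, 22.1 and 29.8 FPKM in the controls and 57.04, 32.9 and 37.6 FPKM in the mutants, which shares 43.2% of its 50-base windows with other transcripts.

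Complex IV, cytochrome c oxidase, had 15 tested genes with medians of -0.008, -0.506 and 0.090. Its 12 common genes, the complex joiner Cox7a2l among them, had -0.106, -0.512 and 0.075. The regulatory subunit Cox4i1 had the highest mean of complex IV, at 323, 440.2 and 342 FPKM in the controls and 290.0, 309.7 and 379 FPKM in the mutants, lower in the mutants of litters 1 and 2 and higher in litter 3. Cox5a, a matrix-side subunit, was at 115, 155 and 119 FPKM in the controls and 94.1, 98.6 and 115 FPKM in the mutants, lower in each litter by -0.28, -0.65 and -0.04. Cox6a1, whose promoter is shown above, was at 134, 509 and 244 FPKM in the controls and 105, 194 and 239.7 FPKM in the mutants. Its control of litter 2 was 2.09 times the next highest column, and the log2 difference was -0.59 (SE 0.53).

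The reverse order was seen in Cox7c, at 11.2, 6.27 and 11.5 FPKM in the controls and 11.1, 14.8 and 14.2 FPKM in the mutants, where the control of litter 2 was the lowest column. Cox7c shares 23.0% of its 50-base windows with other transcripts. The median difference of the 12 tested members with 20% or more of such windows was -0.021, and that of the 52 with under 1% was -0.069.

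Complex IV is the part of the chain with most alternative subunits, and these were read as pairs. The low-oxygen and lung form Cox4i2 was at 8.37, 19.2 and 9.47 FPKM in the controls and 9.28, 14.9 and 15.6 FPKM in the mutants, far below Cox4i1 in every column. Its mutant was higher in litters 1 and 3 and lower in litter 2. The testis form Cox6b2 was at 9.27, 38.1 and 23.8 FPKM in the controls and 11.8, 21.4 and 25.1 FPKM in the mutants, and its common partner Cox6b1 at 276, 428 and 221 FPKM in the controls and 240.3, 268 and 241 FPKM in the mutants. Cox7a2 was at 115, 78.1 and 104 FPKM in the controls and 110.2, 115 and 106 FPKM in the mutants, and the related Cox7a2l at 78.1, 74.4 and 39.6 FPKM in the controls and 86.2, 85.8 and 47.5 FPKM in the mutants, higher in each litter by 0.14 to 0.26. The common forms Cox7b and Cox8a were at 76.3, 127 and 54.4 FPKM in the controls and 86.02, 54.1 and 57.97 FPKM in the mutants, and at 265, 446 and 198 FPKM in the controls and 237, 302 and 240.3 FPKM in the mutants, both with the control of litter 2 as the highest column. In FPKM, a scale per length, each common form was above its alternative form in all 6 columns.

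The heart and muscle forms and other testis forms were low or listed at 0. Cox6a2 was at 0, 0 and 1.16 FPKM in the controls and 0.0647, 0.164 and 1.16 FPKM in the mutants, Cox7a1 at 1.19, 0 and 2.13 FPKM in the controls and 0.856, 0.557 and 0.806 FPKM in the mutants, and Cox8b at 0, 0 and 0.803 FPKM in the controls and 0.0649, 0 and 1.07 FPKM in the mutants. The testis form Cox8c was listed at 0 in all 6 columns. Cox7b2 was at 0.315, 5.07 and 0 FPKM in the controls and 0.1499, 0.463 and 0.153 FPKM in the mutants, above 1 FPKM only in the control of litter 2. These 5 genes and Atp5g2 were the 6 members that missed the filter.

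Ndufa4l2 was the 1 member whose groups were apart in the higher direction. It is a known HIF target that is induced by low oxygen and is related to the complex IV subunit Ndufa4. It was at 1.07, 0.678 and 1.17 FPKM in the controls and 1.304, 2.25 and 1.94 FPKM in the mutants, and every mutant column was above every control column. Means were 0.974 ± 0.261 FPKM (SD, n = 3) in controls and 1.83 ± 0.483 FPKM (SD, n = 3) in mutants. The log2(FPKM + 1) difference was 0.52 (SE 0.20), higher in 3 of 3 litters by 0.15, 0.95 and 0.44. It did not pass limma's adjustment (unadjusted p = 0.0366, adjusted p = 1.00, and in the paired fit adjusted p = 0.402). Levels near 1 FPKM are low, and the pseudocount of 1 shrinks the difference. Ndufa4 was at 208, 272 and 213 FPKM in the controls and 207, 198 and 218 FPKM in the mutants, at least 88 times higher in each column and level between genotypes except in litter 2.

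**Figure D4:**
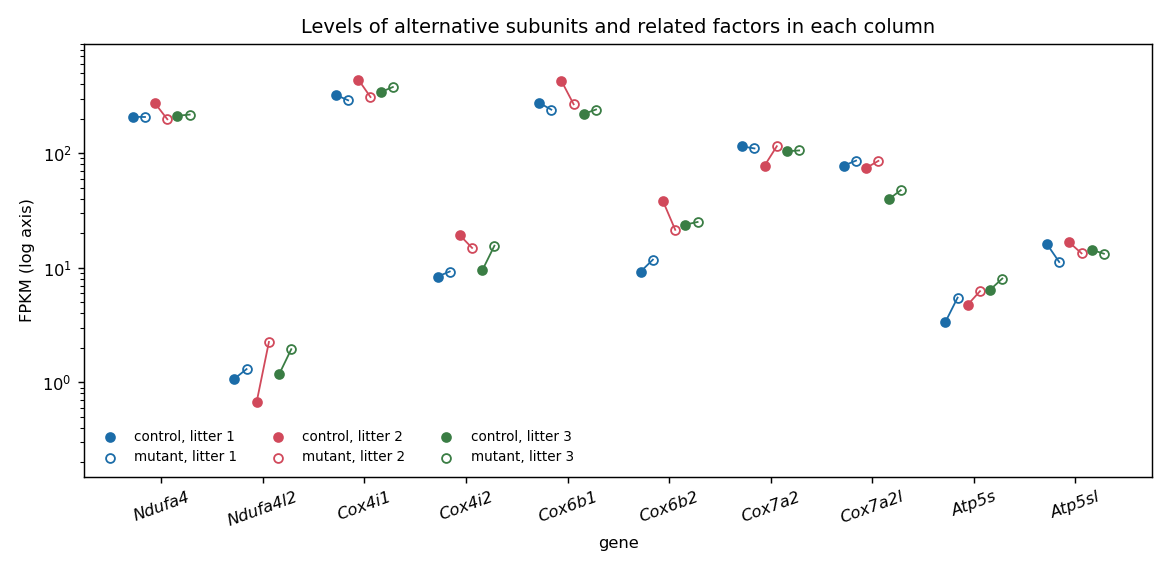
FPKM of alternative complex IV subunits, of the complex joiner Cox7a2l and of the ATP synthase related genes in each of the 6 columns, on a log axis; filled points are controls, open points mutants, and lines join columns of a litter. All 3 mutants of Ndufa4l2 lie above all 3 controls, and all 3 mutants of Atp5sl lie below all 3 controls.

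The ATP synthase held the 2 members of highest mean level. Its catalytic F1 head had medians of 0.019, 0.065 and 0.15 over 5 genes. The alpha subunit Atp5a1 was at 486, 418 and 463 FPKM in the controls and 499, 438 and 473 FPKM in the mutants, higher in each litter by 0.03 to 0.07. The beta subunit Atp5b, which makes the ATP and was the most abundant member, was at 535, 566 and 536 FPKM in the controls and 500.4, 539 and 563 FPKM in the mutants. The 95% interval of the log2 difference ran from -0.35 to 0.44 for Atp5a1 and from -0.42 to 0.35 for Atp5b. The central stalk subunit gamma, Atp5c1, was at 190.0, 169.7 and 141 FPKM in the controls and 197, 189 and 161 FPKM in the mutants, higher in each litter by 0.05, 0.16 and 0.19.

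The 9 tested genes of the stalk and membrane part had medians of -0.009, -0.579 and 0.078. Atp5o, which ties the stalk to the head, was at 144, 394 and 151 FPKM in the controls and 119.9, 143 and 156 FPKM in the mutants, and Atp5k, whose promoter is shown above, was at 206, 485 and 174 FPKM in the controls and 214, 324 and 192 FPKM in the mutants. In both the control of litter 2 was the highest column. Atp5o shares 28.2% of its 50-base windows with other transcripts, so its level is uncertain. The subunit c genes Atp5g1, Atp5g2 and Atp5g3 encode the same mature protein of the rotor ring. Atp5g1 was at 40.98, 75.5 and 9.33 FPKM in the controls and 30.6, 29.5 and 8.24 FPKM in the mutants, lower in each litter. Its unadjusted limma p was 0.0232 in the paired fit, with an adjusted p of 0.376, and 0.4635 without the block. It shares 10.2% of its 50-base windows with other transcripts. Atp5g3 was at 204, 347 and 374 FPKM in the controls and 203, 359 and 395 FPKM in the mutants, and Atp5g2 had the lowest mean of the ATP synthase genes, at 0, 0 and 0.1104 FPKM in the controls and 0.0333, 0 and 0.328 FPKM in the mutants. Atp5g2 shares 38.4% of its 50-base windows with other transcripts, so its values near 0 are uncertain. Litter 3 thus held the lowest Atp5g1 and the highest Atp5g3 in both genotypes.

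Atp5l was at 0.133, 14.9 and 8.62 FPKM in the controls and 0.155, 0.476 and 8.67 FPKM in the mutants, and litter 2 differed by -3.43 in log2. It shares 68.5% of its 50-base windows with other transcripts, the most of any member, so its level is uncertain. The 2 related genes differed in opposite directions. Atp5s was at 3.37, 4.76 and 6.42 FPKM in the controls and 5.49, 6.24 and 8.05 FPKM in the mutants, higher in each litter by 0.57, 0.33 and 0.29 (log2 0.40 (SE 0.24), limma adjusted p = 1.00, and 0.344 in the paired fit). Atp5sl was at 16.1, 16.6 and 14.4 FPKM in the controls and 11.2, 13.4 and 13.3 FPKM in the mutants, lower in each litter by -0.48, -0.29 and -0.11 (log2 -0.29 (SE 0.14), limma adjusted p = 1.00, and 0.416 in the paired fit).

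The median glucose-use gene was higher in the mutant of every litter, though not each gene was. Over 28 tested of 29 genes, the median difference was 0.380, 0.585 and 0.533 in litters 1, 2 and 3. Of the 28, 22 were higher in all 3 litters (78.6%) and 0 were lower in all 3, where the backgrounds were 15.7% and 22.3%. In 12 of 28 every mutant column was above every control column (42.9%, background 4.22%), and 10 had an unadjusted limma p under 0.05 (35.7%, background 2.21%), or 16 in the paired fit (57.1%, background 5.34%). None passed adjustment (lowest limma adjusted p 0.525, and 0.0643 in the paired fit). Of the 17 glycolytic enzymes, Pfkp, which encodes a form of phosphofructokinase, was at 1.51, 1.43 and 1.62 FPKM in the controls and 3.16, 3.52 and 3.295 FPKM in the mutants. Hk2, a hexokinase that traps glucose in the cell, was at 14.6, 14.7 and 10.9 FPKM in the controls and 29.2, 39.99 and 19.8 FPKM in the mutants. In both genes all mutants were above all controls.

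At the branch between lactate and respiration, Pdk1, a kinase that shuts pyruvate dehydrogenase, was at 20.1, 17.5 and 21.3 FPKM in the controls and 32.5, 35.9 and 37.9 FPKM in the mutants. Slc16a3, a lactate exporter, was at 23.6, 26.1 and 24.1 FPKM in the controls and 45.9, 82.1 and 56.7 FPKM in the mutants. All 13 genes of HIF feedback and mitophagy were higher in all 3 litters (100%, background 15.7%), with medians of 0.690, 1.354 and 0.501. P4ha1, a collagen prolyl hydroxylase, was at 46.3, 46 and 41.03 FPKM in the controls and 75.3, 90.03 and 67.6 FPKM in the mutants.

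Set side by side, the median of the members minus that of the glucose-use genes was -0.459, -0.931 and -0.465 in litters 1, 2 and 3. The members minus all rows gave -0.009, -0.316 and 0.065. In litters 1 and 3 the members were thus close to all rows while the glucose-use genes were above them, and in litter 2 the members were also below all rows. Over litters the member minus glucose-use difference was -0.679, and it was -0.432 without the litter 2 pair. Opposite signs of the list medians were found in litters 1 and 2 and not in litter 3, and the litter 1 member median was within 0.01 of that of all rows. After adjustment for transcript length, the member medians were 0.033, -0.243 and 0.059. Those of the glucose-use genes were then 0.481, 0.708 and 0.528, so the signs were opposite in litter 2 only.

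**Figure D5:**
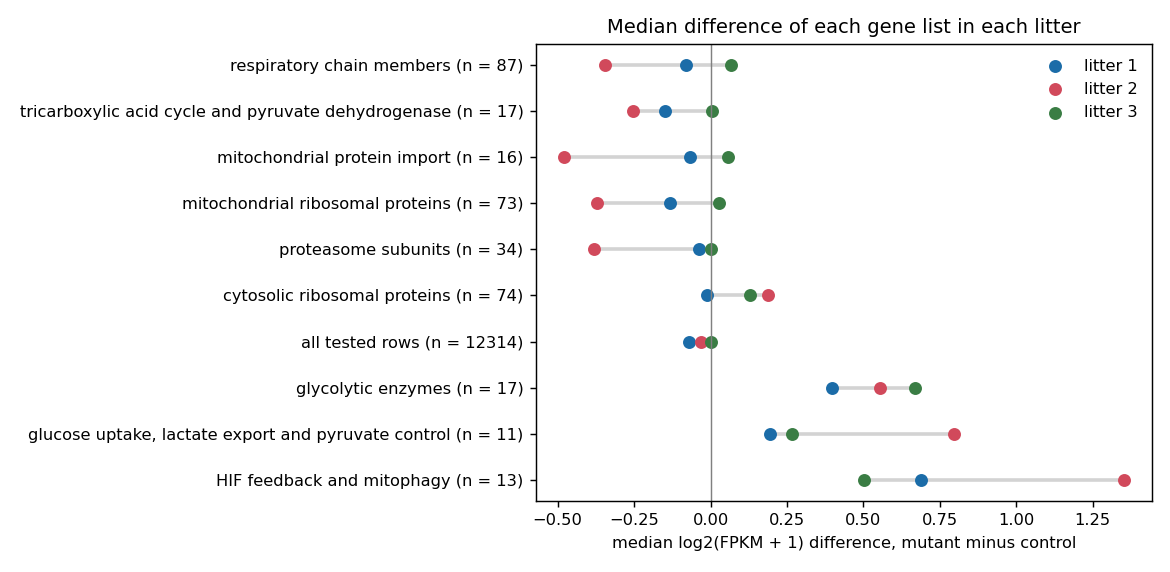
Median difference in log2(FPKM + 1), mutant minus control, of each gene list in litters 1, 2 and 3 (points), with a grey bar from the lowest to the highest. Respiratory chain members range from -0.346 to 0.068, and the 3 lists of glucose use and HIF feedback lie above 0 in every litter.

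In the other mitochondrial lists litter 2 also had the lowest median. The 17 genes of the tricarboxylic acid cycle and pyruvate dehydrogenase had medians of -0.149, -0.253 and 0.004, and 0 passed adjustment. Dlst, a subunit of 2-oxoglutarate dehydrogenase, was at 54.8, 62.2 and 61.4 FPKM in the controls and 47.2, 53.97 and 55.1 FPKM in the mutants, lower in each litter. The 27 tested assembly factors outside the symbol rule had -0.099, -0.247 and -0.023, with 9 lower and 1 higher in all 3 litters (33.3% and 3.70%, against backgrounds of 22.3% and 15.7%). Timmdc1, a complex I assembly factor, was at 14.9, 19.1 and 13.7 FPKM in the controls and 12.2, 11.98 and 12.6 FPKM in the mutants, all mutants below all controls. The 16 tested genes of protein import had -0.066, -0.479 and 0.058, and the 9 antioxidant and uncoupling genes had 0.033, -0.328 and 0.002. The 4 genes of cytochrome c and electron carriers had -0.073, -0.550 and -0.008. The 13 mitochondrially encoded subunits are not analysed here.

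Of 73 tested mitochondrial ribosomal proteins, 23 were lower and 3 higher in all 3 litters (31.5% and 4.11%, against backgrounds of 22.3% and 15.7%), with medians of -0.134, -0.372 and 0.028. Litter 2 was also lowest in the 34 tested proteasome subunits, which are not mitochondrial, with -0.036, -0.381 and 0.001. The 74 tested cytosolic ribosomal proteins, whose transcripts are about as short as those of the members (median 712 bases), had -0.013, 0.187 and 0.130. In the control of litter 2 the median deviation was 0.298 for mitochondrial ribosomal proteins and -0.188 for cytosolic ones. Rpl11, Rpl12, Rpl17, Rpl23a and Rpl35 were listed at 0 in that column, so the litter 2 values of the cytosolic list are uncertain. The part of transcript length in the differences between these lists was not tested.

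Among 17 tested regulators of mitochondrial gene expression, the medians were -0.044, -0.050 and -0.032. Nrf1, whose site is printed above, was at 26.5, 21.5 and 20.5 FPKM in the controls and 24, 20.97 and 22.1 FPKM in the mutants, with overlapping groups. Gabpa, the DNA-binding subunit of GABP, was at 22.9, 21.4 and 22.9 FPKM in the controls and 26.3, 23.1 and 26.4 FPKM in the mutants, higher in each litter by 0.11 to 0.19. Ppargc1a, a coactivator of mitochondrial biogenesis and of oxidative metabolism, was at 1.07, 0.548 and 0.996 FPKM in the controls and 1.99, 1.97 and 2.07 FPKM in the mutants. All 3 mutants were above all 3 controls, at 2.01 ± 0.0522 against 0.872 ± 0.283 FPKM (SD, n = 3), which gave a log2 difference of 0.70 (SE 0.17). It did not pass adjustment (limma adjusted p = 0.847, and 0.206 in the paired fit).

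Markers of other cell types differed between columns, and in bulk RNA fewer cells of a type and less RNA per cell cannot be told apart. Summed over 13 muscle markers, FPKM ran from 32.8 to 87.6 in controls and from 52.6 to 75.2 in mutants. For 9 endothelial markers the sums were 7.10 to 19.4 in controls and 5.96 to 6.27 in mutants, and for 10 surface ectoderm markers 23.7 to 46.9 and 17.4 to 25.1. In all 3 of these lists the highest column was the control of litter 2. The 9 matched red cell markers, out of 12, summed to 329 to 597 FPKM in controls and 230.1 to 717 FPKM in mutants. For 10 nerve and glia markers the range was 54.3 to 102 FPKM in controls and 73.7 to 120.2 FPKM in mutants, and for 7 leukocyte markers it was 12.3 to 15.2 and 9.996 to 17.6. Levels varied within the lists. The leukocyte marker Ptprc was at most 0.337 FPKM, while Coro1a of the same list was at 5.27 to 8.03 FPKM. The muscle marker Pax7 was at most 0.610 FPKM, while Actc1 was at 9.86 to 40.4 FPKM. Limb mesenchyme markers summed to 553 to 844 FPKM over all 6 columns, and chondrocyte markers to 664 to 1125 FPKM. Their part in the member values was not tested.

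The deposited list of genes named as directly repressed by Shox2 held 4 of the 93 members among its 1352 symbols: Ndufaf5, Cox8c, Cox6c and Atp5g3. The expression values cover 24102 rows, and how many of these the list holds was not counted. The 4 are therefore not read as more or fewer than the share over all rows. Cox8c was listed at 0 throughout. Ndufaf5 was at 8.18, 9.71 and 6.26 FPKM in the controls and 8.11, 7.13 and 7.996 FPKM in the mutants, and Cox6c was at 179, 248 and 140.0 FPKM in the controls and 184, 173 and 131 FPKM in the mutants. For Ndufaf5, Cox6c and Atp5g3 the groups overlapped and the litters differed in sign.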

How the data were processed

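RNA from cells sorted by GFP was sequenced in 3 control and 4 mutant samples at E12.5. Per the submitters' processing notes, the authors used TopHat and Cuffdiff on mm9. Their versions and the annotation used are not stated in the labels or headers. Values were, per the file headers, normalised by Cuffdiff's geometric method, stated for each litter separately. The deposited values were taken as FPKM, since Cuffdiff reports that unit. The word is not in the header, and depth is unknown. A second deposited file holds gene symbols only.

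From these values, mutant and control columns were compared with limma 3.58.1 (R 4.3.3, intensity trend) on log2(FPKM + 1), for 12314 rows at 1 FPKM or more in at least 3 columns. P-values were adjusted by Benjamini-Hochberg over all these rows, with a threshold of 0.05. Differences on this scale understate those of low genes. The fit was tested on data simulated from the tested rows. Without the block it recovered 27 of 100 rows changed 2-fold and 74 of 100 changed 4-fold, with 0 false calls. With the block it recovered 59 and 91 of 100, with 4 false calls. Many 2-fold changes were thus missed. With 3 columns in each group the smallest two-sided p of an exact permutation test is 0.1. The descriptions say that numbers mark litters, so the numbers pair the columns. Deviations from group means correlated within litters 1, 2 and 3 at 0.873, 0.568 and 0.770 over all rows, and at 0.755, 0.429 and 0.819 over the members. Separate normalisation of the litters can also make such correlations, so they do not test the pairing.

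The members and gene lists were chosen with earlier results of these data known. Genes were named by rule: per complex the 2 smallest p in each direction, the highest and lowest mean level, alternative subunits and core subunits, and per other list up to 2 with the smallest p. Others named with their values were chosen after these were seen. Transcript lengths and shared 50-base windows came from GENCODE vM21, of another build, so no coordinates of the files are given. Promoters are RefSeq, GRCm38.p6. Alternatives covered pseudocount, filter, scaling, litter block, column weights, shared names and left-out columns. Length adjustment and the fit without litter 2 and without block were added after the data were seen.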

Additional observations from a re-analysis of the deposited data

How the results depend on the processing

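Limits: 3 columns per group, an unknown depth and litters normalised separately. The levels of the control of litter 2 and of both columns of litter 1 also move with transcript length. Over 21 alternative settings, 18 of them planned, no member passed adjustment, and the lowest limma adjusted p of any member was 0.137. The median member difference stayed below 0, from -0.238 to -0.002 (main value -0.137), with quantile normalisation at -0.077, column weights at -0.037 and length adjustment at -0.054. Members minus glucose-use genes ranged from -0.736 to -0.432. Of 815 values of 39 named members, 777 were within 1 SE of the reported value, 38 moved further, and 60 changed sign with none called.

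With the replicate block, which uses the litter pairing, 0 members and 0 rows were called, as without it, and the paired fit changed no other call. Among all rows, limma called 15 with column weights, 44 with the block after length adjustment, and, with the block and one litter left out, 303 without litter 2 and 27 without litter 3, against 0 in the reported fit. The causes were not tested. Leaving out 1 column at a time called 0 to 1 rows. Where 1 pair was left out the fit had 2 litters.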
